A study of Neurospora crassa with 24 samples.

Results

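A set of 151 genes of *Neurospora crassa* is described here that were low both in wild-type cultures kept in light and in ∆*ve-1* cultures kept in the dark, relative to wild-type cultures kept in the dark. Of the 10561 genes counted, 9412 passed a filter on low counts, and 7056 of these had a mean of at least 10 CPM in the wild type in the dark. CPM are counts per 1000000 counts of the library, with the library total scaled by a TMM factor, which corrects for a few very abundant genes taking a large share of a library. The members were chosen by their measured values: the mean in wild-type light and the mean in ∆*ve-1* dark were each at most 0.25 of the mean in wild-type dark, and all 3 libraries of each lay below all 3 wild-type dark libraries. The light side of this rule was met by 227 genes and the velvet side by 447 genes, so the 151 genes that met both are 66.5% of the first and 33.8% of the second. All 151 genes also passed the filter of the tests described here.

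Protoperithecia, the immature female organs, were induced on plates of synthetic crossing medium at 22 °C for 7 days in light or in the dark, and tissue was collected 1 day before fertilization. The 8 conditions are a strain labelled ∆*ve-1* ∆*wc-1*, ∆*ve-1*, a strain labelled ∆*wc-1* and the wild type, each in light and in the dark, with 3 libraries per condition. All strains in this series are deletion mutants or the wild type, with no transgene named in the labels, and the labels do not say how many isolates stand behind a strain. The methods state that tissue of biological replicates was combined for RNA extraction, so the p-values measure the spread between these libraries, which may be partly technical. The libraries were made from poly(A) RNA and hold 30246878 to 42697941 counts each. *ve-1* (NCU01731) had 2.80 to 5.80 CPM as a mean in the 4 conditions that lack it by label, against 210 to 268 CPM in the other 4. The first light ∆*wc-1*-labelled library stands apart, with 61.3 CPM of *ve-1*, against 286 and 283 CPM in the other two, and with Spearman correlations over genes of 0.793 and 0.808 to them, where they reached 0.987 with each other. Without it, 72 members in place of 70 were lower in light for the label ∆*ve-1* ∆*wc-1* against ∆*wc-1*. Of the 70, 61 were among them. In the dark, a comparison without this library but from the same fit, 105 members in place of 76 were then lower. Over all genes, 327 were then lower in light, fewer than with it, and 639 in the dark, more than with it. *wc-1* (NCU02356) was not low where the label says it is deleted: it averaged 59.9 ± 8.06 CPM in the ∆*wc-1*-labelled dark libraries, against 21.8 ± 5.41 CPM in wild-type dark (SD, n = 3 each), so these strains are called by their labels. The light-induced photoreceptor gene *vvd* (NCU03967) had 4.49 ± 2.29 CPM in light in the ∆*wc-1*-labelled libraries, against 5.74 ± 2.63 CPM in the dark, and 781 ± 275 CPM in wild-type light, against 13.9 ± 4.30 CPM in wild-type dark (SD, n = 3 each).

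Velvet proteins are fungal regulators that bind DNA and form complexes in the nucleus. VE-1 is the *N. crassa* relative of VeA of *Aspergillus nidulans*, which with a methyltransferase-like partner controls sexual fruiting and the making of secondary metabolites, and which light keeps out of the nucleus in that species. WC-1 is the blue-light photoreceptor of *N. crassa* and, with WC-2, switches on light-induced genes. Secondary metabolites such as polyketides are made by enzymes whose genes often lie side by side and are switched on together, and the female sexual phase of *N. crassa* is a time when several of these clusters are active.

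The values that chose the members are given as a description, with no test. Over the 151 genes, the median level was 13.1% of the wild-type dark mean in wild-type light and 7.94% in ∆*ve-1* dark. Wild-type dark means ran from 10.2 to 3633 CPM with a median of 48.6 CPM, and 49 genes had at least 100 CPM. At the limit of the light ratio, the genes just inside were NCU09170 (0.249), NCU06416 (0.249) and NCU05164 (0.242), and those just outside were NCU11383 (0.252), NCU08793 (0.254) and NCU11364 (0.255). At the limit of the velvet ratio, NCU05004 (0.2498), NCU00988 (0.248) and NCU08435 (0.247) were just inside, and NCU09054 (0.251), NCU06913 (0.259) and NCU00509 (0.261) were just outside. At the limit of 10 CPM, NCU09506 (10.2 CPM), NCU02927 (10.4 CPM) and NCU11331 (10.9 CPM) were just inside, and NCU16449 (9.84 CPM), NCU02198 (9.84 CPM) and NCU10684 (9.30 CPM) were just outside. A further 16 genes met all but the condition on overlap, and 86 met all but the limit of 10 CPM. The third wild-type dark library stood apart, with Spearman correlations over genes of 0.936 and 0.930 to the first and second, which reached 0.985 with each other. Without it the rule gave 150 genes, of which 119 are members. Leaving out any other single library that the rule read kept 135 to 148 of the members. The set depends on the scaling: with library totals alone it holds 462 genes, which include all 151, because the median of all genes then lies at a log2 ratio of -0.72 in wild-type light and -0.73 in ∆*ve-1* dark, against -0.07 and -0.05 with TMM factors.

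In the 5 conditions that the rule did not read, the members were low wherever the label includes ∆*ve-1* and high under the label ∆*wc-1*, in light and in the dark. The median member had 4.77, 6.71 and 11.1 CPM in the ∆*ve-1* ∆*wc-1*-labelled light libraries and 4.88, 6.44 and 8.37 CPM in the dark ones. In ∆*ve-1* light the library medians were 2.18, 2.64 and 3.24 CPM. The ∆*wc-1*-labelled libraries had medians of 24.7, 43.8 and 46.3 CPM in light and 36.8, 40.4 and 42.6 CPM in the dark, beside 38.3, 41.8 and 47.2 CPM in wild-type dark. The lowest library labelled ∆*wc-1* thus lay above the highest of the 9 libraries without *ve-1* in these conditions. The median of all genes was between 23.6 and 31.7 CPM in every one of the 24 libraries. The TMM scaling itself holds that median near one level, so it is no separate check on the members. Relative to wild-type dark, the median member stood at 19.9% in light and 14.5% in the dark for the label ∆*ve-1* ∆*wc-1*, at 6.71% in ∆*ve-1* light, and at 80.1% in light and 95.8% in the dark for the label ∆*wc-1*. Gene by gene, 67 of the 151 members had all 6 ∆*wc-1*-labelled libraries above all 9 libraries of ∆*ve-1* light and the label ∆*ve-1* ∆*wc-1*. Over all genes the share was 5.34%. Without the first light ∆*wc-1*-labelled library the count was 107 members, beside 10.4% of all genes.

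**Figure D1:**
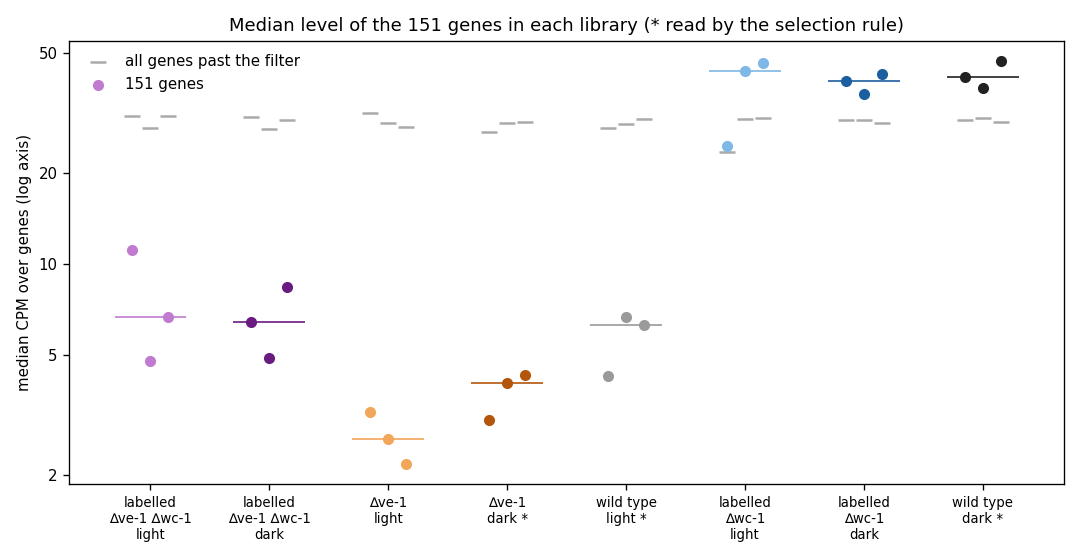
The median CPM over the 151 genes in each library (coloured points, log axis) and over all genes past the filter (grey bars), for the 8 conditions with 3 libraries each; coloured lines mark the middle library, and asterisks mark the 3 conditions that chose the genes. The libraries without *ve-1* lie between 2.18 and 11.1 CPM in light and in the dark, and those labelled ∆*wc-1* between 24.7 and 46.3 CPM.

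The summed level of markers of asexual spores and aerial hyphae was high where members were low. The sum of 9 such genes, none of them a member and none at 0, was 8813 to 19513 CPM in light and 9639 to 20157 CPM in the dark for the label ∆*ve-1* ∆*wc-1*, 38975 to 81225 CPM in ∆*ve-1* light and 18716 to 36797 CPM in ∆*ve-1* dark. It was 85550.2 to 139780 CPM in wild-type light, 762 to 3976 CPM in light and 1566 to 4694 CPM in the dark for the label ∆*wc-1*, and 1125 to 3699 CPM in wild-type dark. In each of the 5 conditions with low members this sum was thus above that of the 3 conditions with high members; its part in the result was not tested. In wild-type light the sum was mostly that of *eas* (NCU08457), the hydrophobin of the spore coat, which averaged 95410.3 CPM there, and the list did not move as a whole. *acon-3* (NCU07617) averaged 9.92 CPM in the dark under the label ∆*ve-1* ∆*wc-1*, against 12.8 CPM under the label ∆*wc-1*, *con-13* (NCU07324) averaged 4.92 CPM in light, against 5.84 CPM, and the ratio of wild-type light to wild-type dark was 1.07 for *csp-1* (NCU02713). Of these 9 genes, edgeR called 0 lower and 2 higher for the label ∆*ve-1* ∆*wc-1* against ∆*wc-1* in the dark, and 0 lower and 4 higher in light. Of 14 genes of female and sexual tissue, none a member, edgeR called 0 lower and 1 higher in the dark and 0 lower and 3 higher in light between the same labels. The sums of this list overlapped, 1398 to 35228 CPM in the ∆*ve-1* ∆*wc-1*-labelled libraries against 1802 to 5883 CPM in those labelled ∆*wc-1*. Their high end was set by *ccg-4* (NCU02500), the pheromone precursor gene. It averaged 13789.8 ± 13644.7 CPM in light and 13909 ± 13507 CPM in the dark for the label ∆*ve-1* ∆*wc-1*, a spread about as large as the mean. For the label ∆*wc-1* it averaged 93.3 ± 73.1 CPM in light and 243 ± 177 CPM in the dark (SD, n = 3 each). By its means *poi-2* (NCU05768) went the other way, with 296 ± 293 CPM in light and 2103 ± 3512 CPM in the dark for the label ∆*ve-1* ∆*wc-1*. The label ∆*wc-1* had 1712 ± 1733 and 3871 ± 1608 CPM of it. The list summed to 3851 to 10788 CPM in wild-type light and 750 to 7470 CPM in wild-type dark. In ∆*ve-1* it summed to 1063 to 5419 CPM in light and 3243 to 18675 CPM in the dark. In such bulk tissue, fewer cells of a type and less RNA per cell cannot be told apart.

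The make-up of the libraries also moved with some conditions. The 10 most abundant genes held 18.7 to 27.1% of counts in wild-type light and 16.3 to 21.4% in ∆*ve-1* dark, against 6.41 to 9.31% in wild-type dark, so in the libraries that chose the members this share and the condition cannot be told apart. It was also above 10% in the second dark and second light library labelled ∆*ve-1* ∆*wc-1* (23.9 and 21.3%), in the second and the third ∆*ve-1* light library (15.2 and 19.4%) and in the first light ∆*wc-1*-labelled library (26.7%), and at most 9.13% in the other 10 libraries of these conditions. Without these 5 libraries, 101 members in the dark and 68 in light were called lower between the labels ∆*ve-1* ∆*wc-1* and ∆*wc-1*, beside 76 and 70 with them; for the libraries that chose the members the part of this share was not tested. Where a gene had over 100 and up to 1000 counts, the share of genes with an even count was between 59.8% (a wild-type dark library) and 93.3% (the first light ∆*wc-1*-labelled library), where 50% is expected. It was 80.3 to 90.2% in wild-type light and 73.5 to 82.6% in ∆*ve-1* dark, against 59.8 to 63.7% in wild-type dark. In the libraries that chose the members, the even share and the condition thus cannot be told apart, and its source was not tested. The first dark and the third light ∆*ve-1* ∆*wc-1*-labelled library were the most alike of all pairs of libraries (Spearman rho over genes 0.992), although their labels differ in light.

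Loss of *ve-1* was compared in libraries the rule did not read, those labelled ∆*ve-1* ∆*wc-1* against those labelled ∆*wc-1*. In the dark, 76 of the 151 members were lower and 0 were higher, with a log2 fold change of -2.47 for the median member, against 0.05 for the median of all 9345 genes tested (edgeR's quasi-likelihood test on 15 libraries, Benjamini-Hochberg adjusted p below 0.05 and a log2 fold change above 1 in size). Over all genes, 3.85% were lower and 3.98% were higher. In light, 70 members were lower and 0 were higher, with a median log2 fold change of -2.19, against 0.02 for all genes, where 4.19% were lower and 4.49% higher. Log2 fold changes were below 0 for 150 members in the dark and for 144 in light, 58 members were called in both comparisons, 18 in the dark alone and 12 in light alone, and 63 in neither. A gene called in one and not in the other is not shown to differ: the test of that difference called 0 members lower and 0 higher, as it did over all genes (0%), with 8 members and 224 genes at an unadjusted p below 0.05.

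The number of calls, though not the direction, rests on few libraries. In the dark it was 32 without the first dark ∆*ve-1* ∆*wc-1*-labelled library, 46 without the second of that condition and 39 without the third dark ∆*wc-1*-labelled library; in light it was 42 without the second and 42 without the third light ∆*ve-1* ∆*wc-1*-labelled library; without both of the near-identical libraries it was 27 in the dark and 34 in light.

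**Figure D2:**
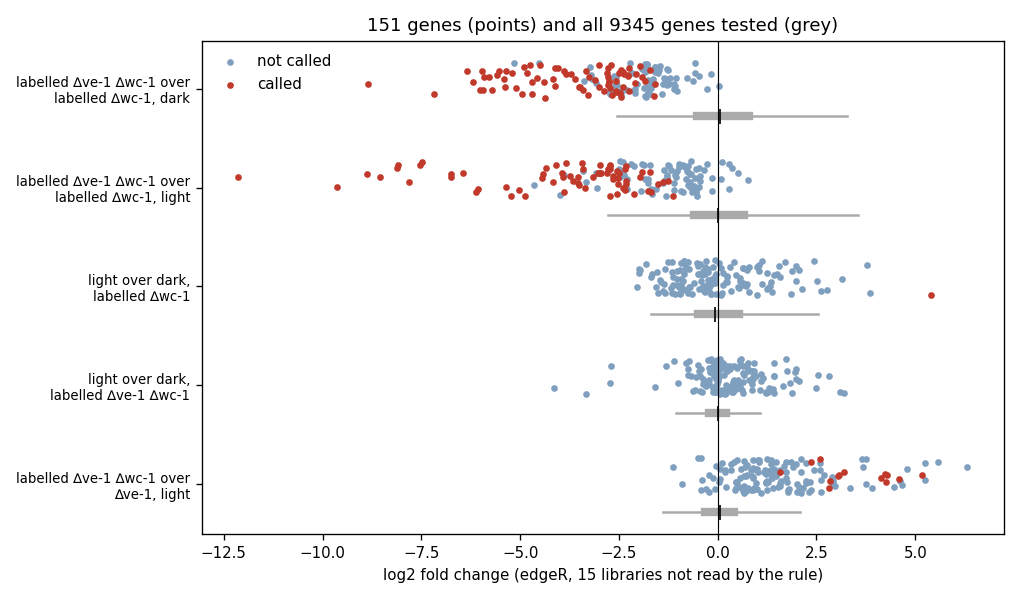
Log2 fold changes of the 151 genes (points, red where called by edgeR and blue where not) in 5 comparisons between conditions the rule did not read; grey bars give the middle 50% and 95% of all 9345 genes tested, with a tick at their median. In the comparisons with the label ∆*wc-1* the points lie mostly left of 0 (medians -2.47 in the dark and -2.19 in light), and in the comparison with ∆*ve-1* in light mostly right of it (median 1.34).

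The largest block of neighbouring members is the gene cluster of *pks-6* (NCU02918) on chromosome I, which codes for a polyketide synthase. In RefSeq several genes of this stretch carry *srd* symbols, those of the cluster for the polyketide sordarial, and *fbm-1* (NCU02925) is named for its need in fruiting body maturation. Between 8655707 and 8699834 of assembly NC12, 10 members lie in the cluster, and 8 of them, NCU02918 to NCU02925, follow each other without a gap. Of these 10 genes, 9 were lower in the dark and all 10 in light under the label ∆*ve-1* ∆*wc-1* against ∆*wc-1*, with median log2 fold changes of -5.30 and -7.51. In the ∆*wc-1*-labelled libraries, the median gene of the cluster stood at 272% of its wild-type dark mean in light and at 177% in the dark.

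*pks-6* had 0.415, 0.754 and 1.02 CPM in light and 1.17, 4.37 and 0.0753 CPM in the dark in the ∆*ve-1* ∆*wc-1*-labelled libraries, and 0.0386, 0.701 and 0.466 CPM in ∆*ve-1* light. It had 182, 82.3 and 143 CPM in light and 88.5, 226 and 32.6 CPM in the dark in the ∆*wc-1*-labelled libraries. No library of the first 3 conditions reached the lowest of the last 2. The log2 fold change was -6.003 (SE 1.22, edgeR adjusted p = 0.012) in the dark and -7.53 (SE 1.31, edgeR adjusted p = 0.00571) in light. Among the libraries that chose it, *pks-6* ranged widely within wild-type dark (154, 36.6 and 5.38 CPM) and was 0 to 1.40 CPM in the 3 wild-type light and the 3 ∆*ve-1* dark libraries.

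*fbm-1* had 2.06, 7.37 and 4.04 CPM in light and 4.97, 22.2 and 2.01 CPM in the dark in the ∆*ve-1* ∆*wc-1*-labelled libraries, against 537, 300.4 and 339 CPM in light and 234, 394 and 122 CPM in the dark in those labelled ∆*wc-1*. No library overlapped between the labels in light or in the dark, and the second dark ∆*ve-1* ∆*wc-1*-labelled library, one of those with a large share of counts in few genes, was the highest of the low ones. The log2 fold change of *fbm-1* was -4.69 in the dark (SE 0.84, edgeR adjusted p = 0.00758) and -6.45 in light (SE 0.92, edgeR adjusted p = 0.00208). NCU02919, a cupin domain protein, had the largest fitted change of the 151 genes in light, -12.13 (SE 2.15, edgeR adjusted p = 0.00614). It had 0.540, 0 and 0.146 CPM in the ∆*ve-1* ∆*wc-1*-labelled light libraries, against 2828, 189.9 and 312 CPM in those labelled ∆*wc-1*, and the size of the change depends on the 2828 CPM of that first library and on counts near 0.

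The other members of the stretch shared this pattern. *srdC* (NCU02920) and *gpl-5* (NCU02922), both annotated as short-chain dehydrogenases, had log2 fold changes of -4.96 and -5.97 in the dark and -3.89 and -7.49 in light. *srdD* (NCU02921), another cupin domain protein, *mkr-2* (NCU02923) and *eph-1* (NCU02924), an epoxide hydrolase, had -5.40, -5.19 and -6.18 in the dark and -8.87, -8.54 and -8.12 in light. NCU02930, annotated pyridoxine-9 and the farthest from *pks-6*, had the highest wild-type dark mean of the cluster, 452 CPM, with 24.2, 21.3 and 45.3 CPM in the ∆*ve-1* ∆*wc-1*-labelled light libraries, against 1021, 834 and 1113 CPM in those labelled ∆*wc-1*; its log2 fold changes were -4.17 in the dark and -5.03 in light. NCU02927 passed the test in light (-3.17, edgeR adjusted p = 0.0494) and not in the dark (-2.31, edgeR adjusted p = 0.128). NCU02926 (*srdI*) met both ratios at 0.150 and 0.161 and, with 20.4 CPM in wild-type dark, the limit on CPM. It is no member because it did not meet the condition on overlap. Its means were 24.7 CPM in light and 14.6 CPM in the dark for the label ∆*wc-1*, and 2.23 to 3.29 CPM in the conditions without *ve-1*. Some genes of the stretch lacked the pattern. NCU02928 and NCU02929 lie between members with ratios of 0.718 to 1.34. *srdJ* (NCU02917), next to *pks-6*, had ratios of 2.14 in wild-type light and 2.54 in ∆*ve-1* dark.

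**Figure D3:**
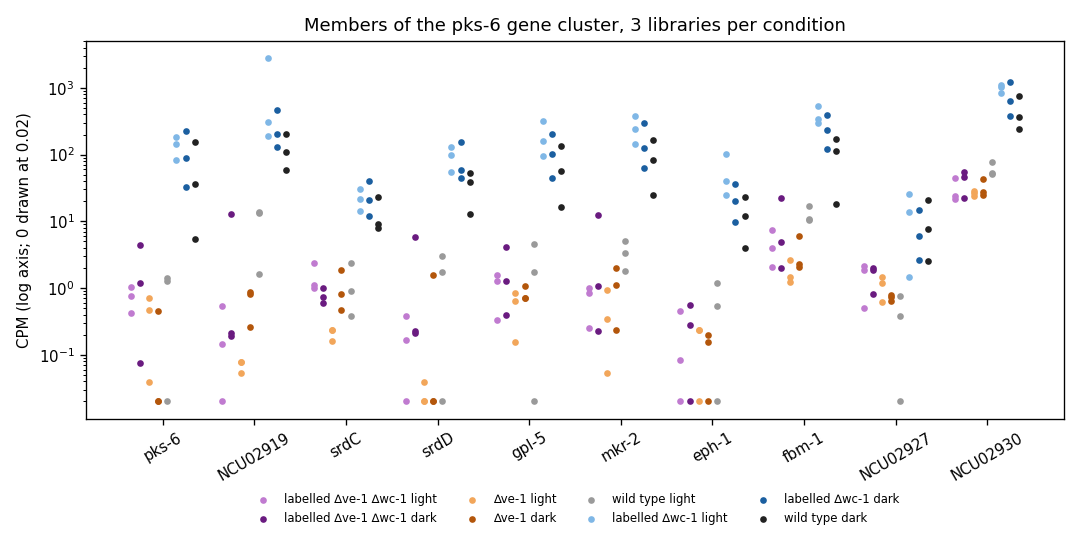
CPM of the 10 members of the *pks-6* cluster (log axis, values of 0 drawn at 0.02), with 3 points per condition in the order of the legend, in the order of the genes along the chromosome. For *pks-6* the points of the libraries without *ve-1* lie at or below 4.37 CPM and those labelled ∆*wc-1* at 32.6 CPM or more.

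Outside this cluster, 14 members are annotated as oxidoreductases of varied kinds, from cytochrome P450 genes to a thymine dioxygenase and a copper amine oxidase. Between the labels ∆*ve-1* ∆*wc-1* and ∆*wc-1*, 6 of them were lower in the dark and 8 in light. The cytochrome P450 gene NCU05848 had the largest change of any member in the dark, -8.84 (SE 1.13, edgeR adjusted p = 0.00115), and -9.62 in light (SE 1.07, edgeR adjusted p = 0.000502). It had 0.0831, 0.167 and 0 CPM in light and 0, 0 and 0.0376 CPM in the dark in the ∆*ve-1* ∆*wc-1*-labelled libraries, against 118, 27.98 and 33.1 CPM in light and 9.48, 10.2 and 6.53 CPM in the dark in those labelled ∆*wc-1*. It was at or near 0 in all 12 libraries without *ve-1*, while wild-type light kept 1.65 to 6.93 CPM. The aldehyde dehydrogenase gene *ahd-4* (NCU07053) was 0 in all 3 ∆*ve-1* dark libraries, and had log2 fold changes of -5.71 in the dark and -6.76 in light, where the ∆*wc-1*-labelled libraries held 36.8 to 118 CPM. NCU09103, named as a P450 gene in the study's tables, changed less, at -1.70 in the dark and -3.51 in light (edgeR adjusted p = 0.0272 and 0.00111).

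*spp-3* (NCU06650), annotated as a secretory phospholipase A2, had 2.76, 0.251 and 2.31 CPM in light and 2.45, 3.56 and 2.11 CPM in the dark in the ∆*ve-1* ∆*wc-1*-labelled libraries, against 98.6, 157 and 108 CPM in light and 113, 114 and 113 CPM in the dark in those labelled ∆*wc-1*. Its log2 fold changes were -5.39 in the dark (SE 0.67) and -6.06 in light (SE 0.69), with edgeR adjusted p = 0.00115 and 0.000502. In the ∆*wc-1*-labelled libraries it lay above wild-type dark, which had 46.9, 71.7 and 16.3 CPM. Among 6 carbohydrate-active enzymes, most of which act on plant wall polymers, 2 were lower in the dark and 3 in light: *gh43-3* (NCU06861) at -3.12 and -2.98 and *gh61-13* (NCU07898) at -2.77 and -1.96 in the 2 comparisons, and *gh43-4* (NCU09170) in light alone, at -2.65. *gh61-2* (NCU07760), *gh88-1* (NCU05063) and *gll-1* (NCU05852) passed neither test.

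Among 6 genes of signalling and RNA metabolism, 4 were lower in the dark and 4 in light. The kinase gene *stk-44* (NCU06583) had 49.2, 11.3 and 14.1 CPM in light and 4.69, 6.97 and 15.9 CPM in the dark in the ∆*ve-1* ∆*wc-1*-labelled libraries, against 133, 486 and 514 CPM in light and 443, 384 and 450.1 CPM in the dark in those labelled ∆*wc-1*. Its log2 fold changes were -5.53 in the dark (SE 0.74, edgeR adjusted p = 0.00134) and -3.92 in light (SE 0.69, edgeR adjusted p = 0.00589). Its neighbour NCU06582, a member of unknown function, fell with it, by 6.36 and 4.86 on the log2 scale.

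*gtp-5* (NCU03600), annotated as a GTP-binding protein, was the most abundant member in wild-type dark, with 2563, 1652 and 6684 CPM. It had 779, 210.1 and 221 CPM in light and 147, 212 and 203 CPM in the dark in the ∆*ve-1* ∆*wc-1*-labelled libraries, against 5882, 3574 and 3614 CPM in light and 2608, 1294 and 1556 CPM in the dark in those labelled ∆*wc-1*, so no library overlapped. Its log2 fold changes were -3.28 and -3.43 (edgeR adjusted p = 0.00921 in the dark and 0.00657 in light). *rrp3* (NCU08435), an RNA-dependent RNA polymerase of the family that feeds RNA silencing, and *gpr-38* (NCU09796), annotated as an integral membrane protein, were lower in both comparisons as well, *rrp3* at -2.28 and -1.39 and *gpr-38* at -2.71 and -3.37. The translation initiation factor gene *eif4E-2* (NCU03717) and the transcription factor gene NCU16491 were not called.

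Genes of heterokaryon incompatibility, the system by which fused hyphae of unlike strains kill the shared compartment, supply 4 members. *pin-c* (NCU03494), the partner of *het-c* in this reaction, had 2.37, 0 and 0.875 CPM in light and 0.256, 0.610 and 0.395 CPM in the dark in the ∆*ve-1* ∆*wc-1*-labelled libraries, against 18.8, 17.98 and 19.4 CPM in light and 11.6, 7.36 and 8.79 CPM in the dark in those labelled ∆*wc-1*. Its log2 fold changes were -4.49 and -4.09 (edgeR adjusted p = 0.0191 in the dark and 0.0211 in light). *tol-2* (NCU17278) was lower in the dark (-2.24, edgeR adjusted p = 0.0232) and not called in light (-1.28). *rcd-1* (NCU05712), whose protein triggers cell death when unlike alleles meet, was not called, with log2 fold changes of -4.51 (SE 1.47) and -2.31 (SE 1.32). A single library sets its spread: the ∆*ve-1* ∆*wc-1*-labelled light libraries had 25.1, 0.0837 and 0.709 CPM. NCU03378, annotated TOL, was not called either (-1.92 and -1.08).

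Of 5 transporter genes, *mfs-11* (NCU00988), annotated as a quinate transporter of the major facilitator superfamily, was the only one called, lower in both comparisons at -1.60 and -1.26. It had 10.99, 17.8 and 16.1 CPM in light and 22.0, 18.3 and 25.9 CPM in the dark in the ∆*ve-1* ∆*wc-1*-labelled libraries, against 43.8, 26.2 and 37.8 CPM in light and 51.2, 61.8 and 87.4 CPM in the dark in those labelled ∆*wc-1*. The most abundant transporter, NCU06341, had log2 fold changes of -2.56 and -2.48 and missed the threshold (edgeR adjusted p = 0.0648 and 0.0685). *sut-9* (NCU04963), *mdr-5* (NCU02023) and *trm-64* (NCU01374), annotated as transporters of sugar, drugs and metals, were not called.

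Of the 151 members, 95 are annotated as hypothetical proteins or have no product, and 55 have a gene name. Of the 106 members in none of the groups described so far, 52 were lower in the dark and 43 in light. NCU08657 had 0.0831, 0.754 and 0.271 CPM in light and 0.426, 6.36 and 0.301 CPM in the dark in the ∆*ve-1* ∆*wc-1*-labelled libraries, against 1.74, 50.9 and 233 CPM in light and 137, 337 and 527 CPM in the dark in those labelled ∆*wc-1*. It was lower at -7.19 in the dark (SE 1.65, edgeR adjusted p = 0.0209) and -8.10 in light (SE 1.74, edgeR adjusted p = 0.0146). NCU06081 had 277, 98.3 and 98.7 CPM in light and 76.3, 63.1 and 163 CPM in the dark for the label ∆*ve-1* ∆*wc-1*, against 525, 592 and 480.1 CPM in light and 579, 505 and 704 CPM in the dark for the label ∆*wc-1*. The changes of NCU06081 were -2.56 and -1.75, and both passed the test. NCU07107 had 0 counts in all 6 ∆*ve-1* libraries and 12.8 to 21.2 CPM in the ∆*wc-1*-labelled libraries, with log2 fold changes of -5.92 and -6.12 for the label ∆*ve-1* ∆*wc-1* against ∆*wc-1*. NCU16494 (*vad-18*) was lower at -5.10 and -6.74, and NCU08224 at -5.79 in the dark, while it missed the threshold in light (-3.41, edgeR adjusted p = 0.0549).

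Among the most abundant of these genes, NCU03121 had 45.4, 20.5 and 39.0 CPM in light and 38.3, 19.5 and 42.3 CPM in the dark for the label ∆*ve-1* ∆*wc-1*, against 90.4, 194 and 251 CPM in light and 197, 198 and 285 CPM in the dark for the label ∆*wc-1*, without overlap (log2 fold changes -2.76 and -2.35, both called). NCU07532 (-2.78 and -3.85) was called in both comparisons too. *put-3* (NCU01348) was not (-2.44 and -2.47, edgeR adjusted p = 0.136 and 0.13), and its light libraries with the label ∆*ve-1* ∆*wc-1* spread over 447, 22.4 and 30.1 CPM. The further genes with a name include some of the oxidoreductases already counted as a group. Of these further genes, *nit-14* (NCU03011), *pep5* (NCU07736), a homolog of a vacuolar sorting protein, *npd-1* (NCU03949), a nitropropane dioxygenase, and NCU06140 were lower in both comparisons. Their log2 fold changes were -4.89, -3.33, -2.10 and -2.58 in the dark and -4.43, -2.77, -1.51 and -2.32 in light. *apr-8* (NCU07063) was lower in the dark alone (-1.92), and *spa-17* (NCU03433), a septal pore-associated protein, and *adh-9* (NCU09798), an aryl-alcohol dehydrogenase, in light alone (-1.68 and -3.94). *mpr-1* (NCU01151), annotated calpain-B, *gcy-2* (NCU01906), a putative galacturonic acid reductase, and *cuo-1* (NCU09406), a copper amine oxidase, passed neither test. The light libraries of *cuo-1* under the label ∆*ve-1* ∆*wc-1* spread over 111, 2.85 and 7.65 CPM.

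Light against dark was compared within labels that the rule did not read. In the ∆*wc-1*-labelled libraries, 0 of the 151 members were lower in light and 1 was higher, with a median log2 fold change of -0.18, against -0.07 for all genes, of which 0% were lower and 0.0107% (1 gene) were higher. That gene is a member, NCU00732, a cytochrome P450 gene annotated as trichothecene C-15 hydroxylase. It had 1163, 1289 and 1314 CPM in light, against 47.6, 28.9 and 13.2 CPM in the dark, on the log2 scale 5.39 higher (SE 0.66, edgeR adjusted p = 0.0116). In light it was also lower for the label ∆*ve-1* ∆*wc-1*, which had 4.67, 8.46 and 3.61 CPM (-7.82 on the log2 scale, SE 0.74, edgeR adjusted p = 0.000253), and in the dark it missed the threshold (-1.91, edgeR adjusted p = 0.0558). The higher call in light was lost without the second or without the third dark ∆*wc-1*-labelled library, with all 24 libraries in the fit, with the replicate number as a block and without both near-identical libraries. In wild-type dark, the condition that made it a member, it had 124, 15.8 and 2616 CPM, a spread as wide as that difference, and it was between 1.70 and 10.9 CPM in all 12 libraries without *ve-1* and in wild-type light. At an unadjusted p below 0.05, 25 members and 966 genes passed between light and dark for the label ∆*wc-1*. With limma-voom, 9 members were called lower and 26 higher, beside 132 lower and 170 higher of all 9345 genes. With DESeq2, 0 members were lower and 5 higher, beside 8 lower and 73 higher of all 9268 genes.

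Between light and dark under the label ∆*ve-1* ∆*wc-1*, edgeR called 0 members lower and 0 higher in light, as for all genes (0%), with 16 members and 101 genes at an unadjusted p below 0.05, and with DESeq2 and limma-voom 0 members were called too. The median log2 fold change was 0.22, against 0.00 for all genes, and it was between -0.15 and 0.58 when single libraries were left out. The near-identical pair of libraries is split between these 2 conditions. Within this label, each dark library was also more alike to a light library than to another dark library. Spearman correlations over genes were 0.992, 0.964 and 0.963 in these pairs, against 0.871 to 0.945 between dark and 0.894 to 0.905 between light libraries. These pairs do not all share a replicate number, so neither the fit nor the block by replicate number models them. The 0 calls thus do not show that light had no effect. The effect of this pairing was not tested beyond leaving the near-identical pair out, where 0 members were called.

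The label ∆*ve-1* ∆*wc-1* was set against ∆*ve-1* in light. *ve-1* counts were low in both, and the median member was higher for the label ∆*ve-1* ∆*wc-1*, by 1.34 on the log2 scale, against 0.05 for all genes. The log2 fold change was above 0 for 139 of 151 members. By edgeR, 14 members were higher and 0 lower, where 0.3% of all genes were higher and 0.15% lower, so that 14 of the 28 genes higher over the whole table were members. This comparison shares its light libraries labelled ∆*ve-1* ∆*wc-1* with that against the label ∆*wc-1*, in which 11 of the 14 were called lower in light or in the dark. The count rests on few libraries: it was 6, 1 and 5 without the first, the second and the third ∆*ve-1* light library, and 4 without the third light ∆*ve-1* ∆*wc-1*-labelled library. Over all genes, 9, 3, 7 and 8 were then higher. The count of members was 7 without the first dark ∆*wc-1*-labelled library, 9 without the second, 26 without the first light ∆*wc-1*-labelled library, and 9 without either the second or the third. Over all genes, 10, 12, 54, 16 and 14 were then higher.

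*tpd-1* (NCU00175), annotated terpenoid-1, stood between the extremes in light. It had 147, 32.8 and 95.3 CPM in the ∆*ve-1* ∆*wc-1*-labelled libraries, against 8.56, 13.7 and 10.8 CPM in ∆*ve-1*, on the log2 scale 3.05 higher (SE 0.49, edgeR adjusted p = 0.0159), and 750.3, 612 and 449 CPM in those labelled ∆*wc-1*, against which it was lower at -2.72. *mcr-1* (NCU00052), a methylacyl-CoA racemase, had 7.52, 17.2 and 18.1 CPM in the ∆*ve-1* ∆*wc-1*-labelled light libraries, against 0.715, 1.13 and 3.34 CPM in ∆*ve-1* (3.06, SE 0.53, edgeR adjusted p = 0.0251). In these genes the 3 light conditions did not overlap, with *ve-1* loss alone the lowest.

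NCU04556 and NCU04557, neighbours on chromosome VII annotated as hypothetical proteins, were both higher. NCU04556 had 5.65, 6.36 and 9.50 CPM in the ∆*ve-1* ∆*wc-1*-labelled light libraries, against 0.328, 0.216 and 0 CPM in ∆*ve-1* (log2 fold change 5.18, SE 0.80), and NCU04557 had 11.3, 12.7 and 15.2 CPM against 0.348, 0.243 and 1.71 CPM (4.14, SE 0.69). Their adjusted p were 0.0136 and 0.0183 from edgeR. In *ve-1* loss in the dark, where they were chosen, they had 3.15 to 5.53 and 5.84 to 7.47 CPM, above all ∆*ve-1* light libraries. NCU02486 (4.27), NCU09171 (4.28), NCU01562 (4.58, annotated as a dioxygenase), NCU10591 (3.19), *srdC* (2.83), NCU01292 (2.81), NCU00947 (2.58), NCU05277 (2.35) and *mfs-11* (1.58) were higher too, as log2 fold changes. *srdC* was the only gene of the *pks-6* cluster among them, at 2.39, 1.00 and 1.10 CPM, against 0.232, 0.162 and 0.233 CPM in ∆*ve-1*.

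By their means, some members kept a high level in the ∆*ve-1* ∆*wc-1*-labelled libraries. In the dark 8 and in light 22 were at 50% of wild-type dark or more, while in ∆*ve-1* light it was 1. A single library can set such a mean. The members summed to 7638, 3116 and 3659 CPM in these light libraries and to 2959, 2103 and 6264 CPM in the dark ones. In light, *cuo-1* (111, 2.85 and 7.65 CPM) and NCU09173 (113, 17.8 and 8.29 CPM) passed the 50% through a single library. NCU05236 had 384, 418 and 302 CPM in light and 207, 189 and 717 CPM in the dark in the ∆*ve-1* ∆*wc-1*-labelled libraries, against 19.5, 18.2 and 21.1 CPM in ∆*ve-1* light, on the log2 scale 4.23 higher (SE 0.61, edgeR adjusted p = 0.0114). In the ∆*wc-1*-labelled libraries it had 252, 745 and 594 CPM in light and 852, 1201 and 1766 CPM in the dark, and it was not called lower against them (-0.53 in light and -1.78 in the dark, edgeR adjusted p = 0.592 and 0.0631). *gnn* (NCU06698), glycogenin, which primes glycogen synthesis, had 858, 657 and 628 CPM in light and 579.6, 246 and 2105 CPM in the dark, against 647, 1458 and 1255 CPM in light and 1289, 1086 and 1159.6 CPM in the dark for the label ∆*wc-1*. Its log2 fold changes of -0.65 (SE 0.65) and -0.27 (SE 0.65) were no larger than their errors, and its ∆*ve-1* light level was 298, 139.6 and 107 CPM. *msh4* (NCU10895), a meiotic mismatch repair homolog, was the only member with a log2 fold change above 0 in the dark (0.04, SE 1.25), with 4.20, 1.22 and 20.2 CPM, against 9.17, 7.91 and 7.88 CPM in the ∆*wc-1*-labelled dark libraries.

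**Figure D4:**
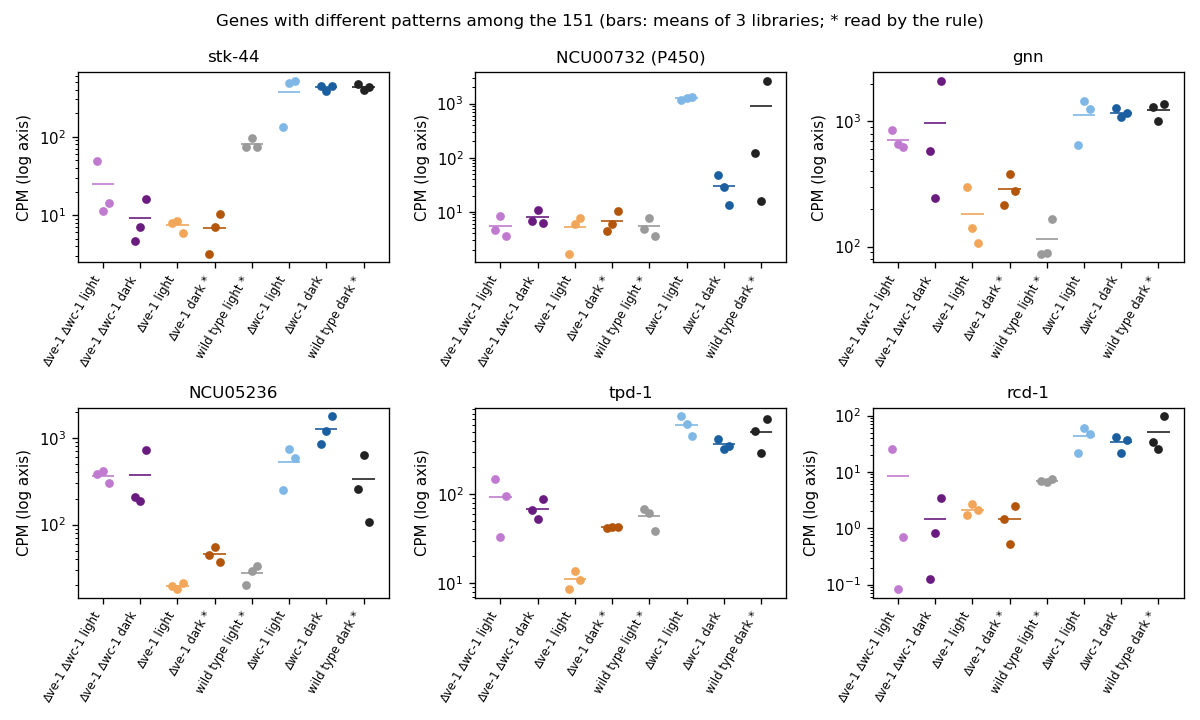
CPM per library (points, log axis) and means of 3 libraries (bars) of 6 members in the 8 conditions, with asterisks at the conditions that chose the members. *stk-44* is low in every condition without *ve-1* and in wild-type light, NCU00732 is above 1000 CPM in the ∆*wc-1*-labelled light libraries and below 48 CPM in their dark ones, *gnn* and NCU05236 stay high for the label ∆*ve-1* ∆*wc-1*, *tpd-1* lies lowest in ∆*ve-1* light, and *rcd-1* spreads from 0.0837 to 25.1 CPM within the ∆*ve-1* ∆*wc-1*-labelled light libraries.

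A smaller number of members differed between the ∆*wc-1*-labelled dark libraries and wild-type dark; as wild-type dark chose the genes, these are levels with no test. Means in the ∆*wc-1*-labelled libraries were at most 25% of wild-type dark for 11 members in the dark and 6 in light, and above it for 70 and 53. The lowest ratios were those of NCU05126 (0.0150), NCU00732 (0.0325), NCU09506 (0.0533), NCU05230 (0.0855) and NCU05699 (0.135). NCU05126 had 12.8, 4.01 and 4.59 CPM in the ∆*wc-1*-labelled dark libraries, against 129.9, 18.5 and 1276 CPM in wild-type dark, where the third library alone sets the mean. *qa-5* (NCU05730), annotated quinate-5, had 9.34, 5.498 and 3.5003 CPM, against 35.7, 31.0 and 49.3 CPM in wild-type dark, with no overlap, and it was also low in light for the label ∆*wc-1* (3.62, 2.93 and 3.53 CPM). The highest ratios were those of NCU05236 (3.82), *spp-3* (2.52), *fbm-1* (2.47), *srdD* (2.44) and *mfs-11* (2.27).

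In ∆*ve-1*, light and dark levels are likewise described without a test. Of 147 members with counts in the dark, the ratio of the light to the dark mean was below 1 for 82 and above 1 for 65, with a median of 0.861. The lowest ratios were those of *srdD* (0.0244), NCU04556 (0.0413), NCU04490 (0.0687), NCU10865 (0.0904) and NCU05788 (0.105), and the highest were those of NCU08224 (4.75), *fkr-3* (NCU04371, 3.61), *msh4* (3.30), *trm-64* (2.85) and *pks-6* (2.68). For *pks-6* and *srdD* both means lie below 0.6 CPM. NCU09506 had 0 counts in all 3 wild-type light and all 3 ∆*ve-1* dark libraries, where a limit of 3 counts corresponds to 0.121 and 0.135 CPM in the library of smallest effective size, and 11.5, 0.493 and 18.6 CPM in wild-type dark.

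Position and length were not used by the rule. Of the 151 genes, 150 code for proteins and 1 is a tRNA gene, and 32 (21.2%) have another member as the next annotated gene. Runs of at least 3 members among 6 genes hold 17 members: NCU02918 to NCU02925 of the *pks-6* cluster, the tRNA-Arg gene NCU15283 with NCU09356 and NCU09357 on chromosome II, NCU09170 (*gh43-4*), NCU09171 and NCU09173 on chromosome III, and NCU10865, NCU04557 and NCU04556 on chromosome VII. NCU09357, annotated as a homolog of a bacterial sporulation protein, and NCU09356 were lower at -3.51 and -4.37 in the dark and at -2.56 and -2.81 in light, and the tRNA gene at -5.36 and -4.35; the libraries were poly(A)-selected, and whether the counts on the tRNA gene come from the tRNA or from its neighbour was not tested. Pairs of neighbours were NCU09568 and NCU09569, *fem-6* (NCU09052) and NCU09053, *vad-12* (NCU05035) and NCU05036, NCU02486 and NCU02487, NCU04341 and NCU04342, NCU04490 and NCU16805, and NCU04630 and NCU10591, beside *stk-44* and NCU06582. Within 300 kb of a chromosome end lay 30 members (19.9%), against 10.8% of all filtered genes. The members made up 1.09% of the filtered genes on chromosome V, the smallest share, and 2.21% on chromosome VI, the largest. Their median length was 1760 bp, against 2169 bp for all filtered genes.

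The members may be set beside the genes that met only 1 side of the rule, as counts without a test of the difference. Of 76 genes that met the light side alone, 5 were lower and 0 higher in the dark for the label ∆*ve-1* ∆*wc-1* against ∆*wc-1*, with a median log2 fold change of -0.58, and 3 were lower and 2 higher in light, with -0.08. Of 296 genes that met the velvet side alone, 155 were lower and 0 higher in the dark, with a median of -1.98, and 124 were lower and 0 higher in light, with -1.65. Against ∆*ve-1* in light, the label ∆*ve-1* ∆*wc-1* had 5 of the 76 and 5 of the 296 genes higher, with medians of 0.83 and 0.60, beside 14 of the 151 members with 1.34.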

How the data were processed

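Per the study's methods, reads were cleaned with fastp, aligned to NC12 with STAR (2.7 in the submitters' processing notes), and counted by featureCounts in its first-strand mode; the authors deposited raw counts for 10561 genes in 24 libraries, and no column of another series was present. The members and gene lists were chosen with earlier results of these data known. CPM came from edgeR 4.0.16 in R 4.3.3, with TMM factors and filterByExpr over the 8 conditions. Tests were edgeR quasi-likelihood fits of the 15 libraries of the 5 conditions that the rule did not read, each condition with its own mean, adjusted by Benjamini-Hochberg over 9345 genes. A gene was called at an adjusted p under 0.05 where its log2 fold change exceeded 1 in size. The procedure was tested on simulated counts. Alternatives were RLE factors, library totals, no filter, DESeq2 1.42.0, limma-voom (limma 3.58.1), all 24 libraries, the replicate number as a block, the 10 highest genes' share of counts as a covariate, and left-out libraries. Replicate numbers stand in the titles. Deviations of same-numbered libraries correlated at 0.26, 0.19 and 0.28 between the dark libraries with the labels ∆*ve-1* ∆*wc-1* and ∆*wc-1*, and at -0.58 to 0.73 in the other comparisons. These values are weak in the first and vary widely over the others, and the titles do not say that numbers pair cultures. Pairing is thus not shown for any comparison. The genes named were the 15 highest in wild-type dark, the 10 largest called changes per comparison, members with a gene name, those in runs, 3 on either side of each limit, and 5 at each end of the described ratios; NCU00947, NCU01292, NCU05277, neighbour pairs and other genes of the *pks-6* stretch were added after their values were seen. Names are from RefSeq and the study's tables, with the locus tag where these give several. Figures used matplotlib 3.10.9 (Python 3.11.15).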

Additional observations from a re-analysis of the deposited data

How the results depend on the processing

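In every alternative with a test, no result changed direction beyond the spread between libraries, and light against dark under the label ∆*ve-1* ∆*wc-1* stayed at 0 members called (1 gene that is no member was lower with DESeq2). The number of members called lower for the label ∆*ve-1* ∆*wc-1* against ∆*wc-1* was 76 in the dark and 70 in light. It was 132 in the dark with limma-voom, 27 and 34 without both near-identical libraries, and 46 and 29 with library totals, which shift the median of all genes by up to 0.338 in size on the log2 scale. Calls over all genes moved too: 1179 were lower in the dark with limma-voom, 99 and 104 without both near-identical libraries, and 158 and 115 with library totals. Leaving out single libraries gave 32 to 105 members in the dark and 42 to 85 in light, beside 103 to 639 and 144 to 590 over all genes. For light against dark under the label ∆*wc-1*, the members called higher, 1, became 5 with DESeq2, 26 with limma-voom (9 lower), and 0 with all 24 libraries or without both near-identical libraries, and were 0 to 1 with single libraries left out. Over all genes, 73 were higher with DESeq2 (8 lower) and 170 with limma-voom (132 lower). In light, the 14 members higher for the label ∆*ve-1* ∆*wc-1* than in ∆*ve-1* became 42 with DESeq2, 29 with limma-voom, 30 with the covariate, 4 without both near-identical libraries, 6 without the 5 libraries with a large share of counts in 10 genes, 1 with library totals, and 1 to 26 with single libraries left out. Over all genes, 146, 144, 88, 8, 11 and 6 were higher in the first 6 of these settings. The difference between the light effects had 1 member lower with DESeq2, 1 with the covariate, and 0 to 1 with single libraries left out. The rule gave 462 genes with library totals and 256 with a looser ratio limit. The 67 separated members became 110 without the 5 libraries, beside 13% of all genes, and 67 to 107 with single libraries left out. The settings that leave out these 5 libraries or use library totals were chosen after seeing the data. The cause of these shifts was not tested.

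With the replicate number as a block, 71 members were lower in the dark and 58 in light against the label ∆*wc-1*, beside 250 and 264 of all genes. In this setting 6 members were higher than in ∆*ve-1*, beside 10 of all genes, and 0 were higher in light under the label ∆*wc-1*. No other count of members called changed.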
